A study of Rattus norvegicus with 5 samples.

Results

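Hypoxia-inducible factor and its targets were followed through the first hour of insulin in Fao cells, as 10 genes chosen by name. They were the alpha subunit gene Hif1a, the prolyl hydroxylase genes Egln1 and Egln3, and Adm, Vegfa, Bnip3, Ddit4, Ndrg1, Ankrd37 and Hmox1. All 10 were on the array, out of 35652 genes and transcripts, with 13 probes that covered 49 spots per array. Ankrd37 is listed there under its older name RGD1565715. Fao cells come from a rat liver tumour and keep much of the gene expression of hepatocytes. Cells starved for 16 h in the presence of 10 nM dexamethasone, a synthetic glucocorticoid, were given 10 nM insulin, and total RNA was taken at 0, 15, 30, 45 and 60 min. Each time had 1 array of 1 colour (Cy3), so the groups were 0, 15, 30, 45 and 60 min of insulin, all starved with dexamethasone, and no time had a replicate. No time-matched untreated cells were analysed here, so insulin and time in culture cannot be told apart.

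HIF-1 is a transcription factor of an oxygen-sensitive alpha subunit and a stable beta subunit, Arnt. When oxygen is present, prolyl hydroxylases of the Egln family mark the alpha subunit, and the ubiquitin ligase subunit Vhl then sends it to the proteasome, so that control lies mostly at the protein, which arrays do not measure. HIF binds short sites with a CGTG core and raises genes for glycolysis, new vessels, mitophagy and its own hydroxylases. In several cell types insulin is known to raise the amount of HIF-1 alpha through PI3K and mTORC1 also at normal oxygen.

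Between 50.9% and 52.6% of the 43379 non-control spots were well above background at 0 to 45 min, and 56.5% at 60 min, and none was saturated. Slide 1 held the arrays of 0 to 45 min and was read in 1 scan run, while the 60 min array was alone on slide 2, so slide and time cannot be told apart at 60 min. All 8 hepatocyte markers (Alb, Ttr, Apoa1, Tf, Serpina1, Fgb, Hnf4a and Tat) were well above background on all 5 arrays. Their summed level lay between 859 and 956 times the 75th percentile of an array. Of 11 markers of other liver cell types (macrophage, endothelial, biliary and stellate) on the array, 3 (Cd68, Col1a1 and Krt19) were well above background on all 5 arrays. The other types' markers summed to 2.15 to 2.41 times that percentile. Cd163, Pecam1, Vwf, Epcam and Krt7 were above background on none. In these bulk samples, fewer cells of a type and less RNA per cell cannot be told apart.

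Levels are on a log2 scale on which 0 is the 75th percentile of an array's processed signals. A change is the level at a time minus that at 0 min, and a gene was called at 1.5-fold or more where its brightest probe was well above background on both arrays. This held for all 10 genes at every time. With 1 array per time there is no test of a single change. Spots of the same probe repeated on an array put the technical standard deviation of a change at 0.18 to 0.20 log2 units, which leaves out differences between cultures and labellings.

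Of the 10 genes, 1 was called. Ankrd37 was lower at 45 and at 60 min, and no other gene differed from 0 min by 1.5-fold at any time. No gene was called higher at 15, 30, 45 or 60 min, where 1.07%, 1.14%, 1.74% and 3.44% of all genes measured on both arrays were. No gene was called lower at 15 or 30 min, where 0.95% and 0.921% of all genes were. At 45 and 60 min 1 of 10 was lower, against 1.07% and 3.72% of all genes. At a 2-fold threshold 0 members were higher or lower at 15 min, against 0.11% and 0.278% of all genes, and 0 at 30 min, against 0.233% and 0.21%. Again 0 were higher or lower at 45 min, against 0.325% and 0.267% of all genes. At 60 min 0 were higher and 1, Ankrd37, was lower, against 0.656% and 0.684% of all genes. The median change of the 10 genes was 0.00, 0.04, −0.04 and −0.07 at 15, 30, 45 and 60 min, and that of all genes was 0.03, 0.02, 0.03 and 0.02. Of the 10 genes, 5, 6, 4 and 4 were above their 0 min level at the 4 times, against 57.1%, 55.4%, 55.5% and 52.7% of all genes. Changes larger in size than the standard deviation over all genes were seen in 3, 1, 3 and 4 of the 10, against 22.0%, 22.5%, 20.9% and 25.2% of all genes.

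**Figure D1:**
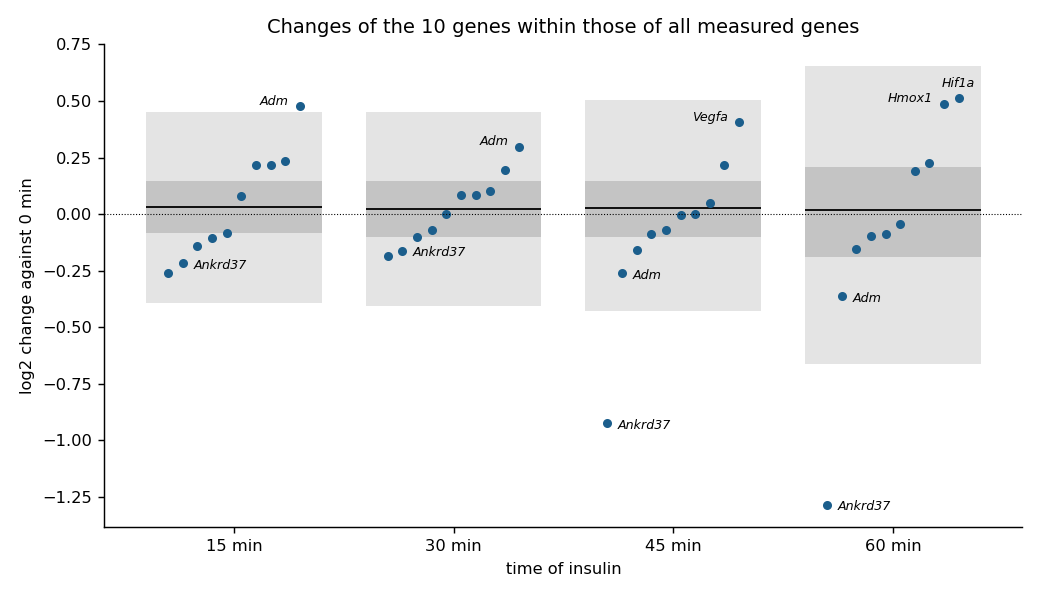
Change against 0 min (log2, vertical axis) of the 10 genes by their brightest probe (points, sorted within each time) at 15, 30, 45 and 60 min of insulin. Light bars leave out the outermost 5% of all genes well above background on both arrays, dark bars span their quartiles, and the line is their median. Ankrd37 lay below the light bar at 45 and 60 min (−0.92 and −1.28), and Adm just above it at 15 min (0.48).

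Hif1a, which codes for the regulated alpha subunit, was flat for 45 min and higher at 60 min. Its brightest probe read 3.47, 3.37, 3.37, 3.401 and 3.98 at 0, 15, 30, 45 and 60 min. The first 4 arrays lay close together and the 60 min array stood above them, at 1.43-fold the 0 min level, under the threshold that it passed with normexp background correction (0.59). The second probe, which sits on 10 spots of each array, read 1.11, 1.02, 0.97, 1.11 and 1.34, so its change at 60 min was 0.23 in place of 0.51. The technical standard error of that 60 min difference over the spots was 0.067, yet the spots of the 60 and 0 min arrays overlapped. Both probes were thus highest on the array that lay alone on slide 2. The probes lie at chromosome 6, 96463815 to 96463874 and 96463274 to 96463333, on the rn4 assembly that the array design uses.

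The hydroxylases showed no called change. Egln1, the main oxygen-sensing hydroxylase of HIF, read 2.17, 2.09, 2.10, 2.09 and 2.13 over the 5 times. Its highest and lowest arrays differed by 1.06-fold, the narrowest range of the 10 genes by brightest probe. Egln3, a hydroxylase whose gene HIF itself induces, was dim and read −2.45, −2.24, −2.37, −2.45 and −2.61. Its change was 0.22 at 15 min and −0.15 at 60 min, both near the technical spread. The probe of Egln1 aligns over 1439 bases of chromosome 19 (55081259 to 55082697), longer than the 60 bases of a probe without a gap, and that of Egln3 lies at chromosome 6, 74451958 to 74452017 (rn4).

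Ankrd37, an ankyrin repeat gene induced by HIF-1, had the widest range of the 10 genes. It read 0.31, 0.09, 0.14, −0.62 and −0.98 at 0, 15, 30, 45 and 60 min. The arrays of 0, 15 and 30 min lay above that percentile, and those of 45 and 60 min lay below it. Its level at 45 min was 1.90-fold lower than at 0 min, and that at 60 min was 2.44-fold lower. Of all genes measured on both arrays, 62 of 17242 were at or below its change at 45 min and 57 of 17832 at 60 min. The 45 min array shares slide 1 with the 0 min array, and within that slide the gene was also 1.63-fold lower at 45 than at 15 min. A single probe on 1 spot of each array carries these values, at chromosome 16, 49552226 to 49552285 (rn4). The array design names it as a predicted gene, and the current name comes from the older symbol in RefSeq.

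**Figure D2:**
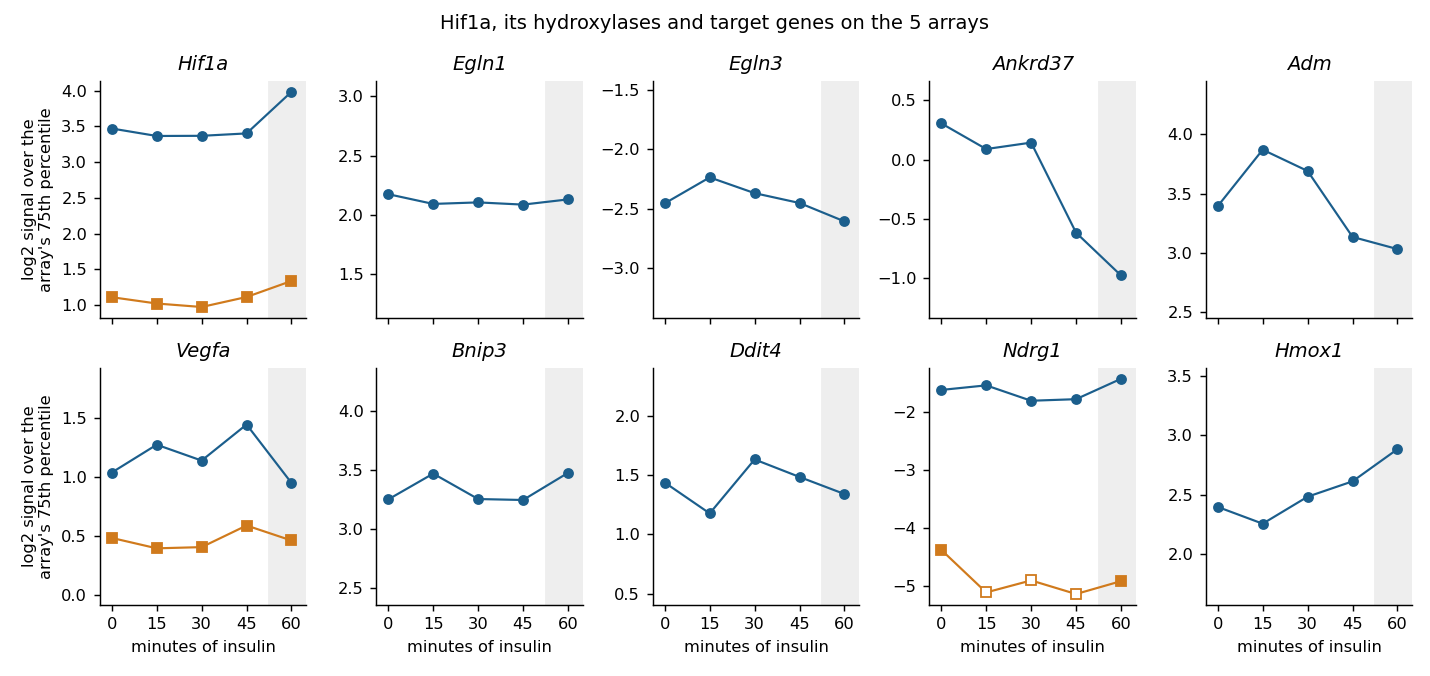
Level (log2 signal over the array's 75th percentile, vertical axis, own range in each panel) of the 10 genes against minutes of insulin. Circles are the brightest probe, squares a second probe, open symbols values not well above background, and the grey band marks the 60 min array on slide 2. Ankrd37 read −0.62 and −0.98 at 45 and 60 min, against 0.31 at 0 min, while Egln1 stayed between 2.09 and 2.17.

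The promoters of 4 of the genes are shown because they set the gene called lower (Ankrd37) beside a target with a smaller and 2-sided course (Adm), one whose level stayed nearly flat (Bnip3) and the factor's own gene (Hif1a). Each runs from 250 bases before to 50 bases after the RefSeq start, 5′ to 3′ on the strand of the gene, on GRCr8. Capitals mark the HIF core motif in its forms ACGTG and GCGTG on either strand (CACGT and CACGC on the other). CACGTG, the E-box of other factors, holds ACGTG on both strands and is capitalised whole.
Ankrd37, chr16:53001257-53001556 (+): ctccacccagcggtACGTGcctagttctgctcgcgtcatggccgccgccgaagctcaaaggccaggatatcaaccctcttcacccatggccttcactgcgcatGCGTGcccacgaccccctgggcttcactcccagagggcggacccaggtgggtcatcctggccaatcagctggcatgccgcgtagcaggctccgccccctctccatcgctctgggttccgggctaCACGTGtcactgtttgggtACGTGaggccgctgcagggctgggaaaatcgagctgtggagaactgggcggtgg
Adm, chr1:174179950-174180249 (+): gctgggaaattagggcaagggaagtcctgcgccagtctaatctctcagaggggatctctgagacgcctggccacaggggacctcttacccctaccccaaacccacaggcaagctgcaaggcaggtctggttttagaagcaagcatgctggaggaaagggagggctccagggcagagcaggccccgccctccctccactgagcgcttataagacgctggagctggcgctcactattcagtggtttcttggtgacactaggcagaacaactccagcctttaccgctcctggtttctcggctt
Bnip3, chr1:203154913-203155212 (-): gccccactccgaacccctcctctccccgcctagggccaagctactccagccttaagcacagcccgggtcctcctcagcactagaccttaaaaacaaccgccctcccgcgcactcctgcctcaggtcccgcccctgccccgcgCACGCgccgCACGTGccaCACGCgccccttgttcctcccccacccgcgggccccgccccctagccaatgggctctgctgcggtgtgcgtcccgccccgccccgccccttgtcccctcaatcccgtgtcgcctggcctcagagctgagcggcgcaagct
Hif1a, chr6:98359648-98359947 (+): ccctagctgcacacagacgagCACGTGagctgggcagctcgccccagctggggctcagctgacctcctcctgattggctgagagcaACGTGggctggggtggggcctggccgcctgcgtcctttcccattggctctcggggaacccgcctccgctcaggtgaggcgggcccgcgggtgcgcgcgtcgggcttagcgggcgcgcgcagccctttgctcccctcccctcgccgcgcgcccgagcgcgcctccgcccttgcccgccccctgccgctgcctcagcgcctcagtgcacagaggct

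The Ankrd37 window held the motif at 4 separate places, 1 of them CACGTG. Bnip3 had it at 3 places and Hif1a at 2, each with 1 CACGTG, and Adm had none. Of the 8 genes with a RefSeq promoter entry, Egln1 and Ddit4 also had it, at 2 places each, while Egln3 and both Vegfa starts had none. Ndrg1 and Hmox1 were not in the table. Among all 33469 promoters of this length, 41.6% held ACGTG or GCGTG, 19.3% held ACGTG and 6.42% held CACGTG. The motif has a CG in it, and the windows were rich in G and C, at 64.7% in Ankrd37, 71.3% in Bnip3, 73.7% in Hif1a and 58.0% in Adm, against a median of 51.7% over all promoters. A match describes letters and shows no binding. Sites outside these 300 bases were not searched, so a window with none does not mean that the gene lacks one.

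Adm, which codes for the vasodilator peptide adrenomedullin, was higher early and lower late. It read 3.39, 3.87, 3.69, 3.13 and 3.03 at 0, 15, 30, 45 and 60 min. The arrays of 15 and 30 min stood above the 0 min array and those of 45 and 60 min below it. Its changes were 0.48, 0.30, −0.26 and −0.36 at 15, 30, 45 and 60 min, all under the threshold. With normexp background correction, whose fit on the 15 min array was distorted by 6 spots, the change at 15 min was −0.19, and without those spots it was 0.45. The probe sits on 10 spots of each array, of which 9 or 10 were usable. On the 15 min array the spots ran from 3.80 to 3.98, clear of the 0 min spots at 3.16 to 3.54, with a difference of 0.48 and a technical standard error of 0.046. The spots at 30, 45 and 60 min overlapped those at 0 min.

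Within slide 1 Adm was highest at 15 min and lowest at 45 min, 1.67-fold lower at 45 than at 15 min. This pair was picked as the extremes, and the share of all genes that differed as much is not given here. The spots at 45 min ran up to 3.32, below all spots at 15 min. The probe lies at chromosome 1, 168382310 to 168382369 (rn4).

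Vegfa, the main growth factor for new vessels, had its highest level at 45 min. The probe with 10 spots read 1.04, 1.27, 1.14, 1.44 and 0.95 at 0, 15, 30, 45 and 60 min. At 45 min it was 1.32-fold higher than at 0 min, and its spots, from 1.30 to 1.59, lay above the 0 min spots, from 0.90 to 1.25. A second probe of the same gene also read highest at 45 min, with levels of 0.49, 0.40, 0.41, 0.59 and 0.46, but its change there was 0.10. The first probe aligns over 386 bases at chromosome 9, 10528580 to 10528965, and the second lies at 10521744 to 10521803 (rn4). Vegfa has many transcript forms, and which of them each probe reads was not assigned here.

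**Figure D3:**
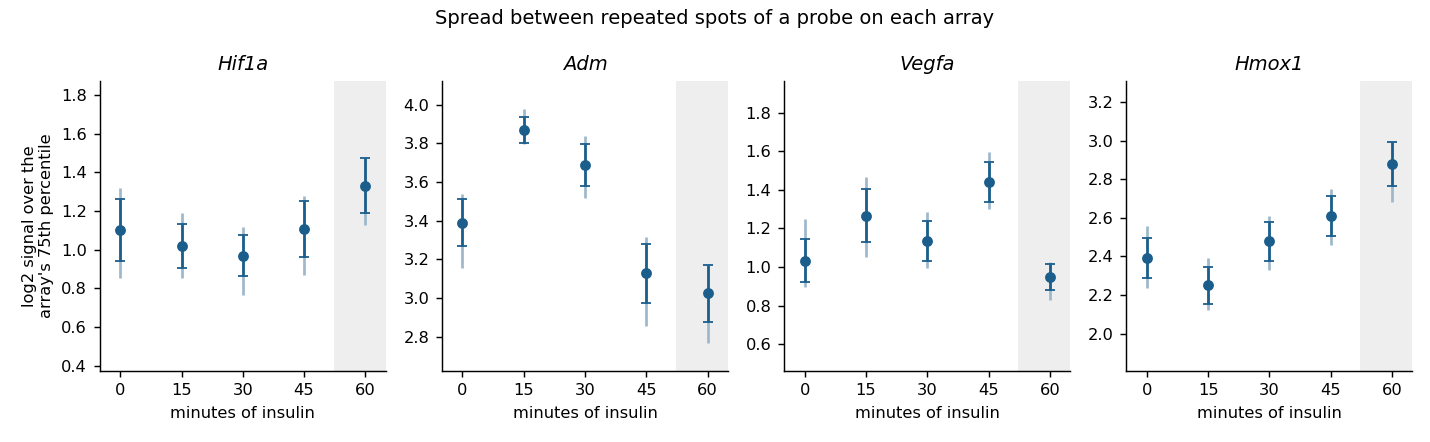
Level (log2 signal over the array's 75th percentile) of the 4 genes with a probe on 10 spots, against minutes of insulin. Points are means over the usable spots of 1 array, capped bars the SD between spots, pale lines the lowest to highest spot, and the grey band the 60 min array on slide 2. The spots did not overlap those of 0 min for Adm at 15 min, Vegfa at 45 min and Hmox1 at 60 min.

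Bnip3, which codes for a mitochondrial protein that recruits the mitophagy machinery, differed little between arrays. It read 3.25, 3.47, 3.25, 3.25 and 3.48, with changes of 0.22 at both 15 and 60 min and of 0.00 and −0.01 at 30 and 45 min. Ddit4, also called REDD1, a stress-induced inhibitor of mTORC1, read 1.44, 1.18, 1.63, 1.48 and 1.34. The 15 min array was the lowest and the 30 min array the highest, with changes of −0.26 and 0.20, and at 45 and 60 min the changes were 0.05 and −0.10. Their probes lie at chromosome 1, 198683435 to 198683494 for Bnip3 and chromosome 20, 27253523 to 27253582 for Ddit4 (rn4).

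Ndrg1, a stress-responsive gene and substrate of the kinase SGK1, gave different courses by its 2 probes. The brighter one, at chromosome 7, 104302898 to 104302957 (rn4), read −1.62, −1.54, −1.81, −1.78 and −1.43, with changes between −0.19 and 0.19. The other, which aligns over 820 bases from 104317460 to 104318279, was near background. It read −4.37 at 0 min and −4.91 at 60 min, 1.45-fold lower at 60 min, and was not well above background at 15, 30 and 45 min. At 30 min its signal was set to the detection limit, so it was at least 1.44-fold lower than at 0 min. At 15 and 45 min it read just above the limits of those arrays, 1.66-fold and 1.69-fold lower. Those readings are not bounds, and all of these values carry the noise of signals near background.

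Hmox1, heme oxygenase 1, which opens the heme ring and is a target of NRF2 as well as of HIF-1, was higher late in the hour. Its 10-spot probe read 2.40, 2.25, 2.48, 2.61 and 2.88 at 0, 15, 30, 45 and 60 min. The levels at 45 and 60 min were the highest, with changes of 0.22 and 0.49. The spots of the 60 min array, from 2.68 to 2.99, lay clear of those at 0 min, from 2.24 to 2.56, while the spots at 45 min overlapped them. The difference at 60 min was 0.49 with a technical standard error of 0.048 within the arrays. That array was alone on slide 2, and 5.75% of all genes measured on both arrays rose as much or more. The probe lies at chromosome 19, 13969336 to 13969395 (rn4).

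A slope on time over the 5 arrays was the only test the design allowed, and no member passed it. It was fitted with limma over 21057 probes well above background on at least 3 arrays, with 3 residual degrees of freedom. The fit called 4 probes after Benjamini-Hochberg adjustment (0.019%), and 0 of the 12 member probes tested. At an unadjusted p under 0.05 stood 2 of the 12, against 10.1% of all probes. They were Ankrd37, with a slope of −1.31 ± 0.22 log2 units per hour (SE), an unadjusted p of 0.00025 and an adjusted p of 0.103, and Hmox1, at 0.53 ± 0.16 per hour with an adjusted p of 0.332. Adm followed at −0.59 ± 0.26 per hour, with an adjusted p of 0.4998, although its levels did not follow a straight line. By limma that slope was −1.23 without the 0 min array, with an adjusted p of 0.0777, and −0.38 without the 60 min array, with an adjusted p of 0.771. Within slide 1 alone, limma gave slopes of −1.09 ± 0.28 for Ankrd37, with an adjusted p of 0.353, and of 0.35 ± 0.17 for Hmox1, with an adjusted p of 0.563. The brightest Vegfa probe had 0.43 ± 0.18 there by limma, with an adjusted p of 0.509. The second Vegfa probe had 0.13 ± 0.17 within slide 1, and over all 5 arrays the brightest had −0.002 ± 0.21. The slope of Hif1a by its brightest probe was 0.43 over 5 arrays and −0.08 within slide 1, so it rests on the 60 min array.

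The list of HIF subunits and their control had 11 genes, among them Hif1a, Egln1 and Egln3. Of these 11, 9 were measured at 30, 45 and 60 min and 8 at 15 min, and 0 were called 1.5-fold higher or lower at any time. Of all genes, 1.07%, 1.14%, 1.74% and 3.44% were called higher at the 4 times, and 0.95%, 0.921%, 1.07% and 3.72% lower. With so few genes, 0 calls is near these shares. Their median change was 0.00, −0.03, −0.03 and −0.07, against 0.03, 0.02, 0.03 and 0.02 over all genes. Epas1, the alpha subunit HIF-2, had changes of 0.25, 0.14, 0.17 and −0.07. Arnt, the shared beta subunit, had 0.03, −0.01, −0.13 and −0.41, and was dim, with levels between −3.89 and −3.44. Vhl, which targets the hydroxylated alpha subunit for destruction, had 0.25, 0.12, 0.15 and 0.39, with 0.10 at 60 min by its second probe. The hydroxylase gene Egln2 had a change of −0.43 at 60 min and between −0.04 and 0.00 before. Hif1an, the asparaginyl hydroxylase that blocks coactivator binding, had −0.25, −0.19, −0.12 and −0.06. Cited2, which competes with HIF for coactivators, had −0.22, −0.03 and −0.22 at 30, 45 and 60 min, and its other probes −0.50 at 60 min. Hif3a and Arnt2 were well above background on 1 array each, so they had no change to give.

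A list of 37 further HIF targets, none of them among the 10 genes, had 36 on the array and 25 to 27 measured. Their median change was 0.08, 0.12, 0.10 and −0.02 at 15, 30, 45 and 60 min, and that of all genes was 0.03, 0.02, 0.03 and 0.02. At 15 min 1 was called higher, at 30 min none in either direction, at 45 min 1 higher, and at 60 min 1 higher and 2 lower. Of all genes 1.07% were higher at 15 min, 1.74% were higher at 45 min, and 3.44% were higher and 3.72% lower at 60 min. At 30 min 1.14% were higher and 0.921% lower. Bhlhe40, a transcriptional repressor of the clock, had changes of −0.46, 0.09, 0.85 and 1.32. Pfkfb3, which makes the activator of phosphofructokinase, had changes of 0.87, −0.04, −0.24 and −1.03. Its 1 probe was dim, at −3.25 at 0 min and −4.28 on the 60 min array, which was alone on slide 2. The other gene called lower was Flt1, a VEGF receptor, at −0.59 at 60 min. It was well above background on 3 arrays and is named for its call, after its values were seen.

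Among the other targets picked by the naming rule, changes stayed under the threshold. Pdk1, a pyruvate dehydrogenase kinase, had a change of −0.55 at 60 min and between −0.11 and −0.04 before. Igfbp1, a binder of insulin-like growth factors, had changes between −0.24 and −0.11. P4ha2, a collagen prolyl hydroxylase subunit, had 0.29 at 30 min and 0.24 at 60 min, and Aldoa, the glycolytic aldolase, 0.21 and 0.24. No gene of either list passed the limma slope test, with lowest adjusted p-values of 0.536 among the control genes and 0.170 among the targets.

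**Figure D4:**
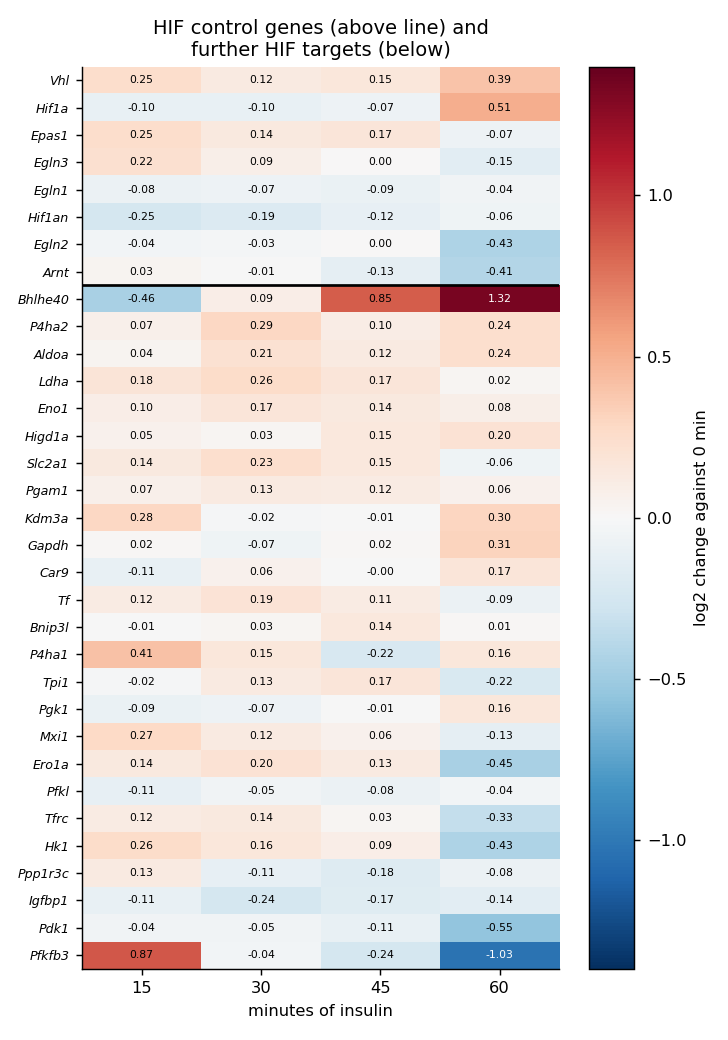
Change against 0 min (log2, colour and printed value) at 15, 30, 45 and 60 min of insulin for 8 HIF control genes, 3 of them members (above the line), and 25 further HIF targets (below) whose brightest probe was well above background on all 5 arrays, sorted by the mean of the last 3 times. Bhlhe40 reached 1.32 and Pfkfb3 −1.03 at 60 min, while most other cells lie near 0.

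The courses most like those of the 2 genes with the widest range were sought by Pearson correlation over the 5 arrays, among named genes well above background on all 5 and with a range of at least 0.64 (for Ankrd37) or 0.42 (for Adm) log2 units. For Ankrd37 there were 915 such genes, and Tor4a (r = 0.974), Ucp3, a mitochondrial carrier (0.972), Dolpp1 (0.964), Zfp90 (0.962) and Tmcc3 (0.961) came closest. Their changes at 60 min ran from −0.77 to −0.62, all smaller in size than that of Ankrd37. For Adm there were 2972, and Susd3 (r = 0.999), Wdr37 (0.997), Extl2 (0.994), Ticam2 (0.992) and Vcpip1 (0.992) came closest. All 5 were higher at 15 min, with changes of 0.26 to 0.55, and lower at 60 min, with −0.50 to −0.20. In all, 40 of the 915 and 79 of the 2972 genes passed r = 0.9. Each correlation rests on 5 points of 1 array each, so these values are a description only.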

How the data were processed

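RNA of 5 samples was measured on Agilent 1-colour arrays. Per the file headers, the deposited intensity is the processed signal of Feature Extraction 9.5.3.1 (Agilent), with spatial and multiplicative detrending on. The deposited series matrix holds log2 values, which matched these intensities after 75th percentile scaling and centring of each probe (correlations of 0.999 to 1.00 across probes), and the steps by which the authors made them were not stated. Here the intensity of a probe, without control and outlier spots, was averaged over its spots and divided by the 75th percentile of the array's non-control spots, floored at the lowest signal well above background, and log2 was taken. For a gene with several probes the brightest was used. Symbols and promoters came from RefSeq GRCr8, used for no other coordinates. Slopes on time came from limma 3.58.1 under R 4.3.3, with a mean-variance trend (none for the series matrix values) and 1 common floor, over probes well above background on at least 3 arrays, at an adjusted p of 0.05, and was tested on simulated data. The alternatives were other background corrections, scalings, filters, baselines and left-out arrays. The members and lists were chosen with earlier results of these data known. All 10 members were named. Of each other list the 3 genes with the highest and the 3 with the lowest mean change at 30, 45 and 60 min were, and all HIF control genes. Python 3.11.15 with pandas 2.3.3 was used. The number of arrays limits the precision, and p-values measure only the spread about the line between these samples.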

Additional observations from a re-analysis of the deposited data

How the results depend on the processing

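The lower level of Ankrd37 at 45 and 60 min was called under every background correction, scaling and baseline and with the series matrix values. It was lost only at 45 min with the 2-fold threshold, where 0 genes were lower. The filter and the probe rule could not change it, since its 1 probe was well above background on all 5 arrays. Normexp background gave 1 gene higher and 4 lower at 15 min and turned Adm to −0.19, where 6 spots of very high local background distort its fit. Refitted without them, a setting chosen after seeing the data, it called none there. At 60 min both normexp fits called 1 gene higher, Hif1a at 0.59. With the mean of the 0 and 15 min arrays as baseline 2 genes were lower at 60 min, Ankrd37 and Adm, Adm at −0.60. The share of all genes called at 1.5-fold under these settings is not given here, so the normexp and baseline counts stand without it. Of 310 values of single members under these settings, 293 stayed within the technical standard deviation of a change, 17 moved further and 0 calls changed sign. Part of the 310 could not move: dropping the filter left every member as it was, and averaging over probes left genes with 1 probe so. Some values without a call did change sign, such as Bnip3 at 15 min with normexp (0.22 to −0.45) and Ndrg1 at 60 min with probes averaged (0.19 to −0.17). The slope test called 0 member genes in every setting, including each array left out in turn (0 to 0), and the adjusted p of Ankrd37 by limma lay between 0.0861 and 0.810. Over all probes the slope fit called 4, and between 0 and 37 in the alternatives: 2 with normexp, 7 refitted, 1 with no filter on dim probes, 0 with the series matrix (fitted without the mean-variance trend, since its centred values carry no level), 37 without the 0 min array, 0 without 15 min, 2 without 30 min, 0 without 45 min and 1 without 60 min. No paired analysis was possible because each time has 1 array and the labels carry no replicate numbers. The second Ndrg1 probe lay near the detection limit. Its change at 30 min is a bound, and those at 15 and 45 min are readings not well above background.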

Other observations

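Hmox1 is also a target of NRF2, and 12 further genes of the NRF2 and heme list were measured. At 60 min 1 was called 1.5-fold higher, Srxn1, a sulfiredoxin that repairs oxidised peroxiredoxins, with changes of −0.25, 0.33, 0.38 and 0.88 at 15, 30, 45 and 60 min, and no gene was called at the earlier times. Of all genes 3.44% were called higher at 60 min, and 0.921% to 1.74% in each direction at the earlier times. The other genes named from the list had smaller changes at 60 min. Nqo1 had changes of −0.25, 0.05, −0.12 and −0.06, Blvra, the biliverdin reductase that acts after heme oxygenase, 0.00, −0.06, −0.16 and 0.10, and the NRF2 gene Nfe2l2 0.17, 0.15, 0.08 and 0.15. Bach1, a repressor of Hmox1, had 0.26, 0.23, 0.48 and −0.07, and Keap1, which holds NRF2 in check, −0.05, −0.03, 0.03 and −0.16. The list median was 0.03, 0.08, 0.03 and 0.02, against 0.03, 0.02, 0.03 and 0.02 over all genes, and no gene passed the limma slope test (lowest adjusted p 0.219).

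Beside Ddit4, 10 genes of mTORC1 control were measured. At 15 min 1 was called lower, Sesn2, a leucine sensor, with changes of −0.78, −0.45, 0.01 and −0.32, and none was called at 30, 45 or 60 min. Of all genes 0.95% were called lower at 15 min, and 0.921% to 3.72% in each direction at 30, 45 and 60 min. Ddit4 had its lowest level on the same array of 15 min. Deptor, an mTOR inhibitor, had changes of 0.17, 0.14, 0.44 and 0.50, and Rheb, the activator of mTORC1, −0.13, 0.23, 0.08 and 0.30. Rptor, Sesn1 and Mtor had −0.31, −0.08 and −0.01 at 60 min. The median of these genes was −0.08, −0.15, 0.02 and 0.10, against 0.03, 0.02, 0.03 and 0.02 over all genes. The lowest adjusted p of the limma slope was 0.354.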
